A study of Homo sapiens with 9 samples.

Results

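The genes described here are 10 that encode enzymes and receptors of the eicosanoids, the lipid mediators made from arachidonic acid: PLA2G4A, PTGS1, PTGS2, PTGES, PTGER4, ALOX5, ALOX5AP, ALOX15B, LTB4R and LTB4R2. They are 10 of the 41857 Ensembl genes in each file, found by matching gene IDs to symbols, and all 10 matched. They were chosen with the fold changes of these same libraries already known, so every change and adjusted p of a member below is a description and lends no independent support. RNA came from MCF10A, a human breast epithelial line that forms no tumours, in cells expressing deltaNp63beta, deltaNp63alpha or the vector only, with 3 biological replicates of each. Both isoforms lack the full transactivation domain at the N terminus of p63, and their C termini differ. All 9 cultures, the vector cultures included, received 500 ng/mL doxycycline for 24 h and grew in medium supplemented with cholera toxin, hydrocortisone, insulin, EGF and horse serum. Whether each line is a clone or a pool of cells is not given in the sources used here. The p-values rest on the spread among the 3 cultures within each group. That spread was pooled over the 3 groups in 1 fit and moderated across genes. Values are normalized estimated counts deposited by the authors; a change is a log2 fold change ± SE computed on log2(value + 1), called at an adjusted p under 0.05 from limma over all 15108 genes tested.

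Eicosanoid synthesis starts when a phospholipase A2 frees arachidonic acid from membrane lipids. Cyclooxygenases then turn it into prostaglandin H2, from which terminal synthases make prostaglandin E2 and its relatives, while lipoxygenases open the leukotriene and hydroperoxide branches. In stratified and glandular epithelia these mediators are known for roles in barrier repair, inflammation and growth, and much of the leukotriene branch is best known from leukocytes.

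TP63, the transgene and the check of the labels, held 6719, 4183 and 4870.0 in the deltaNp63beta libraries and 4426, 6983 and 6961 in the deltaNp63alpha libraries, against 316, 332 and 259 in the vector libraries. The value sets the transgene libraries apart from the vector libraries. It does not check which isoform a library holds, since the deltaNp63beta and deltaNp63alpha libraries overlapped (-0.22 ± 0.21 between them, adjusted p = 0.479 by limma), and transgene and endogenous RNA cannot be told apart in it. Library sums lay between 22.5 M and 23.2 M normalized counts. All 9 markers listed for mammary epithelium were above the filter on low values, and they moved with the groups. Their summed level was 275477 to 291098 with deltaNp63beta, 146433 to 150844 with deltaNp63alpha and 88088 to 93231 with vector. That is the same order as for PLA2G4A, PTGS1, PTGS2, ALOX15B, LTB4R and LTB4R2 below. KRT5 was the largest single part of the sum in every library, with means of 146977, 92598 and 55464 in these groups. Of the 9, 8 rose and none fell with deltaNp63beta against vector, 7 rose and 1 fell with deltaNp63alpha against vector, and 9 rose with deltaNp63beta against deltaNp63alpha. The basal keratin gene KRT14 (4.26 ± 0.13) and the epithelial adhesion gene EPCAM (3.04 ± 0.10) were among those that rose with deltaNp63beta against vector. KRT8 was not called in that comparison (0.03 ± 0.05), and it was the marker that fell with deltaNp63alpha against vector (-0.30 ± 0.05). The part of these markers in the results below was not tested. Of 12 leukocyte and macrophage markers, AIF1 and TYROBP were listed at 0 in every library, and PTPRC, the common leukocyte antigen CD45, reached at most 1.17 with deltaNp63beta, 1.71 with deltaNp63alpha and 4.22 with vector. In bulk libraries such as these, fewer cells of a type and less RNA per cell cannot be told apart.

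PLA2G4A (ENSG00000116711, GRCh38 chromosome 1, 186828953 to 186988981, plus strand) encodes cytosolic phospholipase A2 alpha, the enzyme that releases arachidonic acid. It held 822, 787 and 729 in the deltaNp63beta libraries, 491, 377 and 403 in the deltaNp63alpha libraries, and 305, 256 and 260.4 in the vector libraries. The 3 groups did not overlap and stood in the order deltaNp63beta, deltaNp63alpha, vector. The change was 1.51 ± 0.11 for deltaNp63beta against vector (adjusted p = 1.37e-06), 0.62 ± 0.11 for deltaNp63alpha against vector (adjusted p = 0.00354) and 0.88 ± 0.11 for deltaNp63beta against deltaNp63alpha (adjusted p = 0.000154). Tested against a 1.5-fold change, the rise with deltaNp63alpha and the difference between the isoforms were not called (adjusted p = 1.0 and 0.259).

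PTGS1 (ENSG00000095303, chromosome 9, 122370530 to 122395703, plus strand) and PTGS2 (ENSG00000073756, chromosome 1, 186671791 to 186680427, minus strand) encode the cyclooxygenases COX-1 and COX-2. COX-1 is known as the constitutive enzyme of most tissues and COX-2 as the one induced by growth factors and cytokines. PTGS1 held 226, 254 and 207 with deltaNp63beta, 202, 157 and 171 with deltaNp63alpha, and 66.8, 63.7 and 56.4 with vector. PTGS2 held 176, 172 and 188 with deltaNp63beta, 129, 153 and 159 with deltaNp63alpha, and 50.5, 75.3 and 60.1 with vector. For both genes all 6 transgene libraries lay above all 3 vector libraries, and the lowest deltaNp63beta library lay just above the highest deltaNp63alpha library.

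For PTGS1 the change was 1.86 ± 0.15 for deltaNp63beta against vector (adjusted p = 2.4e-06) and 1.48 ± 0.15 for deltaNp63alpha against vector (adjusted p = 5.04e-05). PTGS2 changed by 1.53 ± 0.17 (adjusted p = 3.13e-05) and 1.25 ± 0.17 (adjusted p = 0.000499) in the same 2 comparisons; the PTGS2 rise with deltaNp63alpha was not called against a 1.5-fold change (adjusted p = 0.0915). Between deltaNp63beta and deltaNp63alpha the difference was 0.38 ± 0.15 for PTGS1 (adjusted p = 0.0786) and 0.28 ± 0.17 for PTGS2 (adjusted p = 0.236), neither called. Per kilobase of exon, PTGS2 made up between 42.7% and 49.96% of the 2 genes' summed level in the deltaNp63beta libraries, between 41.3% and 51.7% in the deltaNp63alpha libraries and between 45.3% and 56.5% in the vector libraries. These ranges overlap.

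Upstream sequence is shown for the cyclooxygenase genes, which rose side by side, and PLA2G4A, which lies 149 kb from PTGS2 in the opposite orientation. It is also shown for ALOX5AP, the member with a called fall against vector. RefSeq promoter windows (GRCh38.p14) were matched for 8 of the 10 members, with 9 windows, since PTGS1 has more than 1 start. Each window below is 240 bases, from 250 to 11 bases before the RefSeq start, written 5′ to 3′ on the gene's strand. Capitals mark matches, on either strand, to TATAAA (the TATA box), TGACG (the core of a cyclic AMP response element), the NF-kB frame (GGG and CC with 5 bases of any kind between) or the p53-family decamer, the unit bound by p53, p63 and p73. The windows are chr1:186680434-186680673 on the minus strand for PTGS2, chr9:122370283-122370522 on the plus strand for the upstream start of PTGS1, chr1:186828699-186828938 on the plus strand for PLA2G4A and chr13:30713235-30713474 on the plus strand for ALOX5AP.
PTGS2: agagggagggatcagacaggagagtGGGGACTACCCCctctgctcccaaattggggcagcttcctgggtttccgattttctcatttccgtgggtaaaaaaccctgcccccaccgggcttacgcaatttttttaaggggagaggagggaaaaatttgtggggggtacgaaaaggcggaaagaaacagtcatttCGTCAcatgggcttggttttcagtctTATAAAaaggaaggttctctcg
PTGS1: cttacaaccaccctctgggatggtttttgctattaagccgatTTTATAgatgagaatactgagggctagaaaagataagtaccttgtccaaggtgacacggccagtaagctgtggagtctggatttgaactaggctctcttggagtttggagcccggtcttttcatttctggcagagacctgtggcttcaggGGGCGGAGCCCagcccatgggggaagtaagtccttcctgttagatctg
PLA2G4A: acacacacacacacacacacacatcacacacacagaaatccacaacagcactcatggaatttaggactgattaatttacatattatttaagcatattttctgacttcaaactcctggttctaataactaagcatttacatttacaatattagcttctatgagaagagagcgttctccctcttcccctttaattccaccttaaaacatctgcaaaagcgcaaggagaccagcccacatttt
ALOX5AP: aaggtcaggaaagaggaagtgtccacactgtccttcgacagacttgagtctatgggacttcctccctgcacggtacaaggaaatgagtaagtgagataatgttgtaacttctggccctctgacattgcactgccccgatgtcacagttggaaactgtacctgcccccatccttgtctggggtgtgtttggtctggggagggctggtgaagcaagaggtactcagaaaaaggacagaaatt

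The PTGS2 window holds TATAAA at -32, TGACG on the other strand at -58 and overlapping matches to the NF-kB frame at -225, -224 and -223. Each position is counted from the RefSeq start to the first base of the match as written. The PTGS1 window holds the TATA letters at -208, on the other strand, and overlapping matches to the NF-kB frame at -58 and -57. The PLA2G4A and ALOX5AP windows hold none of the 4 motifs. Among all 35114 windows of the same length, 10.6% hold TATAAA, 20.5% TGACG, 52.9% the NF-kB frame and 5.30% the p53-family decamer. None of the 9 member windows holds that decamer, which says only that these letters are not in these windows. The PTGS2 window also overlaps an exon of PACERR, a non-coding RNA that GENCODE places there.

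PTGES (ENSG00000148344, chromosome 9, 129738331 to 129753047, minus strand) encodes the inducible microsomal synthase that makes prostaglandin E2 from the cyclooxygenase product. It held 10489.8, 11699 and 11063 with deltaNp63beta, 8489, 7437 and 7875 with deltaNp63alpha, and 8653, 7717 and 8156 with vector. The deltaNp63beta libraries lay above all others, while the deltaNp63alpha and vector libraries overlapped. The change was 0.44 ± 0.06 for deltaNp63beta against vector (adjusted p = 0.000144), -0.04 ± 0.06 for deltaNp63alpha against vector (adjusted p = 0.699) and 0.48 ± 0.06 for deltaNp63beta against deltaNp63alpha (adjusted p = 0.00012). Both rises were under 1.5-fold.

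Per kilobase of exon, PTGES had the highest level of the 9 tested members in every group, with means of 5846, 4184 and 4312 for deltaNp63beta, deltaNp63alpha and vector. ALOX15B came next in each group. Relative to PTGS1 and PTGS2 together, the PTGES level per kilobase was between 76.4 and 81.9 times as high in the deltaNp63beta libraries, between 69.5 and 75.4 times in the deltaNp63alpha libraries, and between 161 and 216 times in the vector libraries. The ratio was thus lower in every transgene library than in any vector library. Exon length here is the union of all annotated exons, which can be longer than the transcript a cell makes.

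PTGER4 (ENSG00000171522, chromosome 5, 40679498 to 40693735, plus strand) encodes EP4, a prostaglandin E2 receptor that raises cyclic AMP. It held 52.1, 84.6 and 91.4 with deltaNp63beta, 121, 119 and 155 with deltaNp63alpha, and 89.4, 91.5 and 90.1 with vector. The deltaNp63alpha libraries were the highest, and the deltaNp63beta and vector libraries overlapped. Against vector the value was -0.29 ± 0.22 for deltaNp63beta (adjusted p = 0.324) and 0.53 ± 0.22 for deltaNp63alpha (adjusted p = 0.14), neither called. The first of these rests on deltaNp63beta replicate 1, the library at 52.1, without which it was -0.038, also not called. Between deltaNp63beta and deltaNp63alpha it differed by -0.81 ± 0.22 (adjusted p = 0.0142), a call lost without deltaNp63alpha replicate 3 (-0.69, adjusted p = 0.0624) and against a 1.5-fold change (adjusted p = 1.0).

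**Figure D1:**
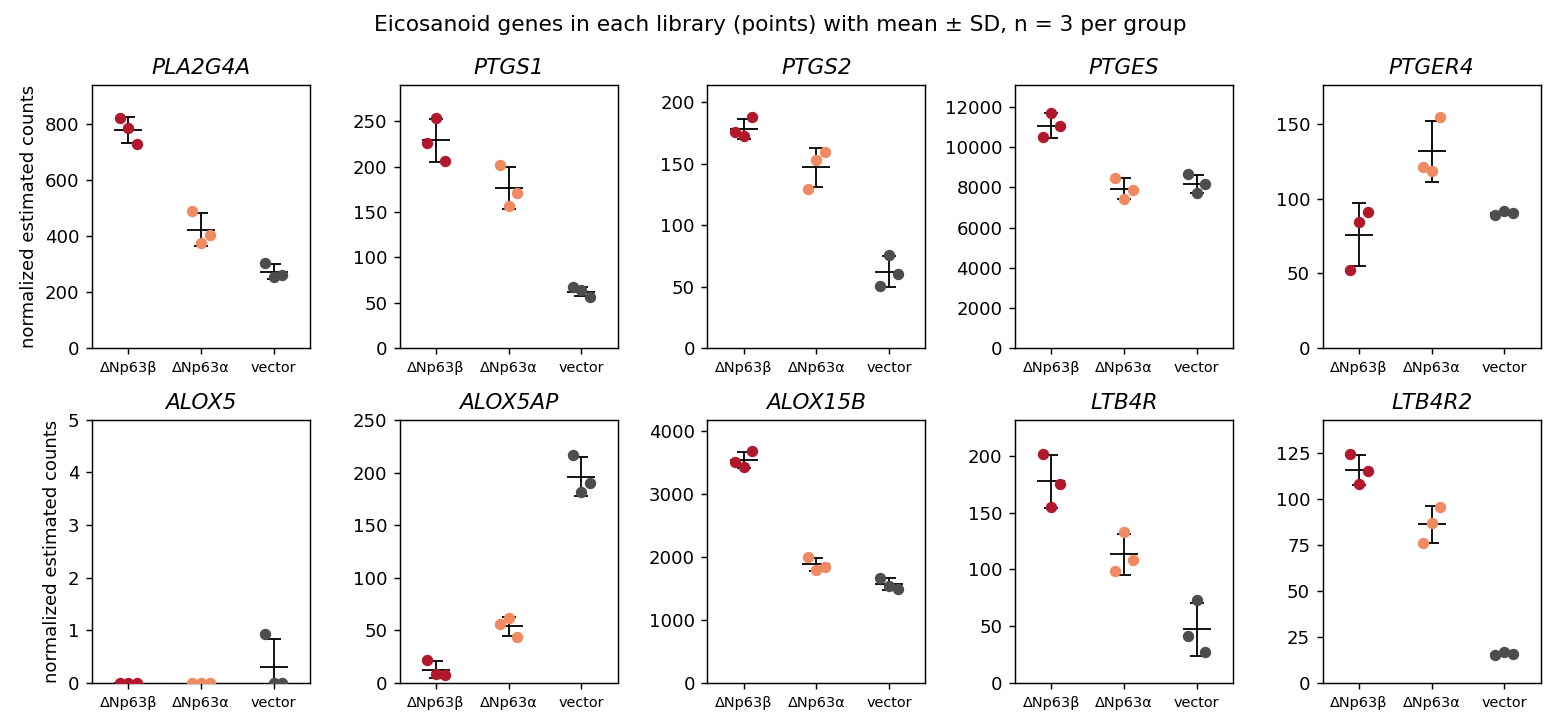
Normalized estimated counts (y axis, linear from 0) of the 10 genes in each of the 9 libraries, with 3 points per group and the mean ± SD as a bar, deltaNp63beta (ΔNp63β), deltaNp63alpha (ΔNp63α) and vector from left to right. PLA2G4A, PTGS1, PTGS2, LTB4R and LTB4R2 stand higher in both transgene groups, ALOX5AP is at 8.19 and 7.81 in 2 deltaNp63beta libraries, and ALOX5 is listed at 0 in 8 of 9 libraries.

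ALOX5 (ENSG00000012779, chromosome 10, 45374176 to 45446119, plus strand), the lipoxygenase that begins leukotriene synthesis, was listed at 0 in all 6 transgene libraries and at 0.923, 0 and 0 in the vector libraries, and was not tested. Its partner ALOX5AP (ENSG00000132965, chromosome 13, 30713478 to 30764426, plus strand) encodes FLAP, the membrane protein that presents arachidonic acid to it. ALOX5AP held 21.5, 8.19 and 7.81 with deltaNp63beta, 56.2, 61.6 and 43.8 with deltaNp63alpha, and 217, 182 and 190.2 with vector. No 2 groups overlapped, and vector was the highest. The change was -4.01 ± 0.34 for deltaNp63beta against vector (adjusted p = 3.53e-06), -1.86 ± 0.34 for deltaNp63alpha against vector (adjusted p = 0.00355) and -2.15 ± 0.34 for deltaNp63beta against deltaNp63alpha (adjusted p = 0.000597). Only 0.285% of the genes tested changed by more than ALOX5AP in the first of these comparisons. It passed the filter on low values through all deltaNp63alpha and vector libraries and 1 deltaNp63beta library. The fall with deltaNp63alpha was not called against a 1.5-fold change (adjusted p = 0.111).

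The summed level of the 12 leukocyte and macrophage markers was highest with vector, as ALOX5AP was. It was 1256 to 1374 with deltaNp63beta, 1306 to 1653 with deltaNp63alpha and 1876 to 2093 with vector. The sums of the deltaNp63beta and deltaNp63alpha libraries overlapped, unlike their ALOX5AP values. The lysosomal protein gene CD68 was the largest single part of that sum in the vector libraries, at 1125, 1161 and 1045. AIF1 and TYROBP were at 0 and PTPRC near 0, as given above, and 4 of the 5 mast cell markers stayed below 10 in every library. Of the 5 markers tested, 3 fell with deltaNp63beta against vector (CD68, ITGB2, CSF1R) and 2 rose (LAPTM5, CD14), while 2 fell with deltaNp63alpha against vector (ITGB2, CD68). The summed level of 5 endothelial markers was 110.3 to 140.5 with deltaNp63beta, 166 to 172 with deltaNp63alpha and 204 to 275 with vector. The summed level of 8 fibroblast markers was 12496 to 13572 with deltaNp63beta, 7787 to 7915 with deltaNp63alpha and 10602 to 10943 with vector. FBLN1 alone made up most of that sum in every library, at 11890, 12412 and 12976 with deltaNp63beta. It held 7160, 7345 and 7167 with deltaNp63alpha, and 9437, 9146 and 9117 with vector. Of the 5 fibroblast markers tested, 3 rose (FBLN1, COL1A1, MFAP5) and 1 fell (DCN) with deltaNp63beta against vector, and 2 fell (DCN, FBLN1) with deltaNp63alpha against vector. DCN, the gene of the matrix proteoglycan decorin, stood in the same order as ALOX5AP, with means of 166, 349.6 and 1211 in the deltaNp63beta, deltaNp63alpha and vector libraries (-2.87 ± 0.11 and -1.79 ± 0.11 against vector). The part of these markers in the ALOX5AP result was not tested.

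ALOX15B (ENSG00000179593, chromosome 17, 8039017 to 8049134, plus strand) encodes an epithelial lipoxygenase that oxidises arachidonic acid outside the leukotriene branch. It held 3501, 3434 and 3689 with deltaNp63beta, 2003, 1799.6 and 1848 with deltaNp63alpha, and 1670.5, 1542 and 1486 with vector. The deltaNp63beta libraries were well above the rest, and the deltaNp63alpha libraries lay just above the vector libraries without overlap. It rose by 1.18 ± 0.06 with deltaNp63beta against vector (adjusted p = 5.73e-08) and by 0.91 ± 0.06 with deltaNp63beta against deltaNp63alpha (adjusted p = 9.68e-07). The rise of 0.27 ± 0.06 with deltaNp63alpha against vector (adjusted p = 0.0125) was lost without vector replicate 3 (0.23, adjusted p = 0.0541). It was also not called against a 1.5-fold change.

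LTB4R2 (ENSG00000213906, chromosome 14, 24305734 to 24312053, plus strand) encodes BLT2, the low-affinity leukotriene B4 receptor known from keratinocytes. It held 125, 108 and 115 with deltaNp63beta and 75.8, 87.0 and 95.6 with deltaNp63alpha, against 15.4, 16.9 and 15.5 with vector. LTB4R (ENSG00000213903, chromosome 14, 24311450 to 24318036, plus strand) encodes BLT1, the high-affinity receptor best known from leukocytes. It held 202, 155 and 176 with deltaNp63beta and 98.6, 133 and 108 with deltaNp63alpha, against 40.9, 73.1 and 27.2 with vector. For both receptor genes the 3 groups stood apart in the order deltaNp63beta, deltaNp63alpha, vector, with LTB4R more uneven among the vector libraries.

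LTB4R2 rose by 2.79 ± 0.19 with deltaNp63beta (adjusted p = 6.6e-07) and by 2.36 ± 0.19 with deltaNp63alpha (adjusted p = 1.05e-05), both against vector. LTB4R rose by 2.0 ± 0.30 with deltaNp63beta (adjusted p = 0.000269) and by 1.35 ± 0.30 with deltaNp63alpha (adjusted p = 0.0108, but 0.591 against a 1.5-fold change). Between the isoform groups LTB4R2 differed by 0.43 ± 0.19 (adjusted p = 0.116) and LTB4R by 0.65 ± 0.30 (adjusted p = 0.121), neither called. LTB4R2 was called without trend and robust moderation (adjusted p = 0.0148), and LTB4R with only the 2 groups in the fit (adjusted p = 0.0174) or without vector replicate 2 (adjusted p = 0.0351).

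The receptor genes are neighbours whose annotations run into each other, so their separate values are uncertain. LTB4R2 and LTB4R share 355 exon bases on the same strand. LTB4R2 also shares 304 exon bases with NOP9 on the same strand and 1276 with CIDEB on the opposite strand, and whether the counting used strand is not given in the sources used here. NOP9 held 829.8, 862 and 970.4 with deltaNp63beta, 899, 954 and 910.0 with deltaNp63alpha, and 906, 957 and 971 with vector, with no call in any of the 3 comparisons. CIDEB was at 39.5, 42.2 and 41.0 with deltaNp63beta, 19.1, 17.0 and 21.1 with deltaNp63alpha, and 16.0, 17.0 and 19.7 with vector, higher with deltaNp63beta (1.18 ± 0.27 against vector, adjusted p = 0.00489; 0.11 ± 0.27 for deltaNp63alpha against vector, adjusted p = 0.843). The part of reads from these genes in the LTB4R2 and LTB4R values was not tested.

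**Figure D2:**
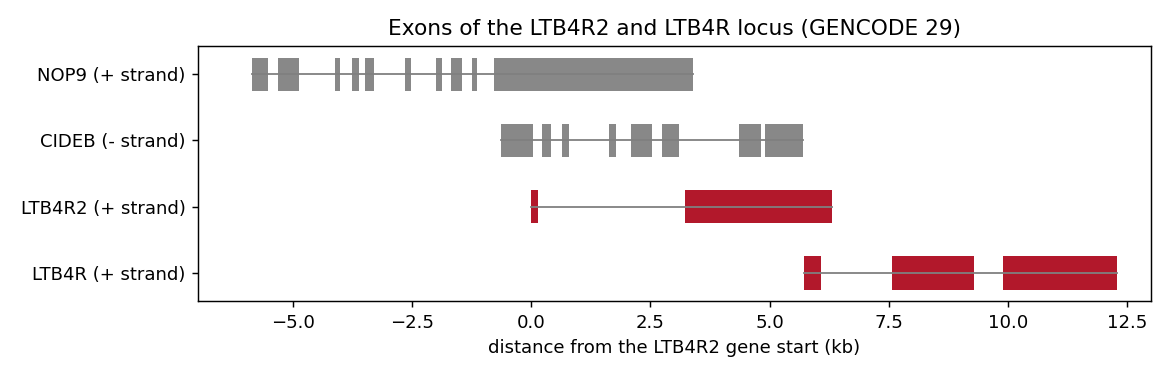
Exons (boxes) of NOP9, CIDEB, LTB4R2 and LTB4R from GENCODE 29 against distance from the LTB4R2 gene start in kilobases (x axis), the receptor genes in red and the others in grey. The long last exon of LTB4R2 covers the whole first exon of LTB4R, where they share 355 bases. CIDEB lies on the opposite strand across LTB4R2.

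Of the 9 members tested, 7 were higher and 1 lower with deltaNp63beta against vector, where 41.3% of all genes were called, 21.8% higher and 19.5% lower. With deltaNp63alpha against vector 6 were higher and 1 lower, where 14.5% of all genes were called, 8.13% higher and 6.37% lower. With deltaNp63beta against deltaNp63alpha 3 were higher and 2 lower, where 32.9% of all genes were called, 17.4% higher and 15.5% lower. The median change of the 9 members was 1.51, 0.62 and 0.43 in these comparisons, beside a median of 0.00 (-0.0048, -0.0059 and -0.00033) over all genes tested. The groups did not overlap for 8, 8 and 9 of the 9 members in the same comparisons, beside 50.6%, 33.5% and 44.8% of all genes tested. The members were chosen with these values known, so nothing is read from the counts. Of these 9, 8 had at least 10 in every library; ALOX5AP was the other one tested. Both comparisons with vector use the same 3 vector libraries, so their results are not independent of each other.

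By group order, PTGS1, PTGS2, LTB4R and LTB4R2 had called rises with both isoforms and no called difference between them. PLA2G4A and ALOX15B had called rises with both and a further called difference in favour of deltaNp63beta. The ALOX15B rise with deltaNp63alpha was lost without vector replicate 3. PTGES had a called rise with deltaNp63beta alone, and its difference from deltaNp63alpha was itself called. ALOX5AP had a called fall with both isoforms and a further called fall with deltaNp63beta against deltaNp63alpha. PTGER4 had no call against vector and was called lower with deltaNp63beta than with deltaNp63alpha, a call lost without deltaNp63alpha replicate 3. A difference that missed the threshold does not show that the isoforms acted alike.

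**Figure D3:**
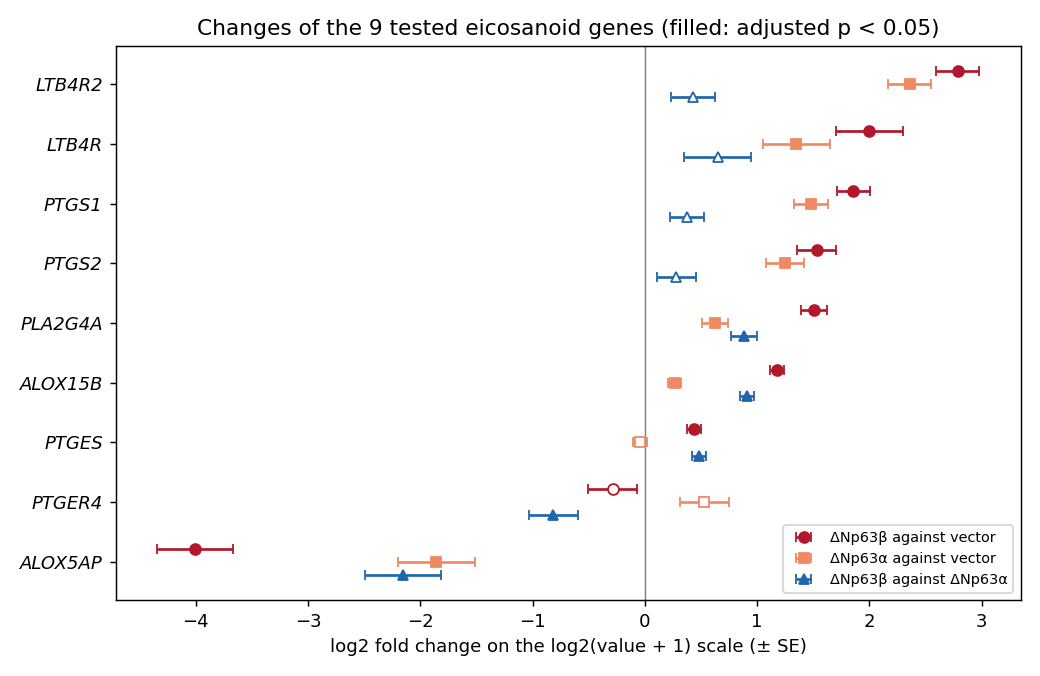
Log2 fold change ± SE (x axis) of the 9 tested genes in deltaNp63beta (ΔNp63β) against vector (circles), deltaNp63alpha (ΔNp63α) against vector (squares) and deltaNp63beta against deltaNp63alpha (triangles), filled where the adjusted p is under 0.05. LTB4R2 is the highest at 2.79 and ALOX5AP the lowest at -4.01, and the triangles of LTB4R2, LTB4R, PTGS1 and PTGS2 are open.

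The rest of the pathway was followed in 83 further genes, grouped by role, of which 51 passed the filter on low values. With deltaNp63beta against vector 17 rose and 8 fell, with deltaNp63alpha against vector 4 rose and 11 fell, and with deltaNp63beta against deltaNp63alpha 21 rose and 4 fell. These are 49.0%, 29.4% and 49.0% of the 51 genes, beside 41.3%, 14.5% and 32.9% of all genes tested, and the counts of the role lists below stand against the same shares. The first of these shares is near that of all genes, and nothing is called particular to the pathway from them. The median change of the 51 was 0.00 (0.0006), -0.14 and 0.23 in the 3 comparisons, beside the medians near 0 over all genes. In the list of 15 tested genes for phospholipases and arachidonate supply, 5 rose and 4 fell with deltaNp63beta against vector, and 1 rose and 3 fell with deltaNp63alpha against vector. ANXA1, annexin A1, known as an inhibitor of phospholipase A2, rose by 0.85 ± 0.05 with deltaNp63beta and 0.32 ± 0.05 with deltaNp63alpha against vector. FADS1, a desaturase that makes arachidonic acid, changed by -0.60 ± 0.06 and -0.54 ± 0.06 in the same comparisons. FADS2 (-0.43 ± 0.06) and the elongase gene ELOVL5 (-0.24 ± 0.04) fell with deltaNp63alpha against vector. MGLL, the monoacylglycerol lipase, and DAGLA, a diacylglycerol lipase, fell with deltaNp63beta against vector (-1.02 ± 0.10 and -1.55 ± 0.25) and against deltaNp63alpha (-0.88 ± 0.10 and -1.16 ± 0.25). ACSL4, which activates arachidonic acid, was 0.23 ± 0.05 higher with deltaNp63beta than with deltaNp63alpha, where 7 of the list rose and 2 fell.

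Among 7 tested prostanoid synthases, 4 rose and 2 fell with deltaNp63beta against vector, and AKR1B1 and AKR1C3 fell with deltaNp63alpha against vector. AKR1C3, an aldo-keto reductase that makes prostaglandin F, held 1964, 1767 and 1729 with deltaNp63beta, 861, 699.9 and 786 with deltaNp63alpha, and 1161, 1147 and 1154 with vector. The groups stood apart with vector in the middle: AKR1C3 rose by 0.65 ± 0.08 with deltaNp63beta against vector (adjusted p = 5.62e-05), and changed by -0.57 ± 0.08 with deltaNp63alpha against vector (adjusted p = 0.000585). AKR1C genes are near-identical, so reads could be divided between them. AKR1B1, which also makes prostaglandin F, was -0.53 ± 0.05 with deltaNp63alpha against vector and 0.50 ± 0.05 with deltaNp63beta against deltaNp63alpha. The other prostaglandin E synthase genes, PTGES3 and PTGES2, were 0.23 ± 0.04 and 0.20 ± 0.06 higher with deltaNp63beta than with deltaNp63alpha; PTGES2 was not called without deltaNp63beta replicate 2 or deltaNp63alpha replicate 1 (adjusted p = 0.0584 and 0.0671). PRXL2B, a prostamide and prostaglandin F synthase gene, fell with deltaNp63beta against both other groups (-0.37 ± 0.09 against vector, -0.42 ± 0.09 against deltaNp63alpha). TBXAS1, the thromboxane synthase gene, fell with deltaNp63beta against vector (-1.05 ± 0.35, adjusted p = 0.032), a call lost when any 1 of deltaNp63beta replicates 2 and 3 and vector replicates 2 and 3 was left out (adjusted p 0.0750 to 0.109) or after quantile normalization (adjusted p = 0.0668).

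Of 5 tested genes for prostanoid receptors and transport, PTGFRN rose and PTGFR fell with each isoform against vector. PTGFR, the prostaglandin F receptor gene, held 17.0, 21.6 and 13.4 with deltaNp63beta and 30.3, 17.2 and 13.3 with deltaNp63alpha, against 101, 118 and 74.2 with vector. All 6 transgene libraries lay below the vector libraries, with a change of -2.43 ± 0.35 for deltaNp63beta (adjusted p = 0.000192) and -2.27 ± 0.35 for deltaNp63alpha (adjusted p = 0.00109). PTGFRN, a negative regulator of that receptor, rose by 0.61 ± 0.04 and 0.29 ± 0.04 in the same comparisons. PTGFRN was also 0.32 ± 0.04 higher with deltaNp63beta than with deltaNp63alpha, the one call of the list there. In the list named prostanoid breakdown, which also holds cytochrome P450 hydroxylase genes, 3 of 6 tested genes rose with deltaNp63beta against vector and none fell. HPGD, the dehydrogenase that inactivates prostaglandins, rose by 1.05 ± 0.30 (adjusted p = 0.0166), not called without deltaNp63beta replicate 2 or vector replicate 2 (adjusted p = 0.0687 and 0.0569), and was 1.38 ± 0.30 higher than with deltaNp63alpha. PTGR2, a prostaglandin reductase gene, rose by 0.68 ± 0.16 against vector and 0.74 ± 0.16 against deltaNp63alpha. CYP4F11, a cytochrome P450 hydroxylase gene with close relatives, rose by 1.28 ± 0.17 with deltaNp63beta against vector. It rose by 0.66 ± 0.17 with deltaNp63alpha against vector and was 0.62 ± 0.17 higher with deltaNp63beta than with deltaNp63alpha. The first of those 2 was lost on leaving out vector replicate 1 or either of deltaNp63alpha replicates 1 and 2 (adjusted p 0.0606 to 0.0856) or with only the 2 groups in the fit (adjusted p = 0.0517). The other was not called without deltaNp63beta replicate 3 or deltaNp63alpha replicate 3 (adjusted p = 0.0513 and 0.0587).

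The list of lipoxygenases and leukotriene synthases had 4 genes higher and 1 lower of 9 tested with deltaNp63beta against vector, and 1 higher and 2 lower with deltaNp63alpha against vector. LTA4H, the hydrolase that makes leukotriene B4, held 5722, 5951 and 5637 with deltaNp63beta, 3757, 3491 and 3622 with deltaNp63alpha, and 3088, 3141 and 3042 with vector. It rose by 0.90 ± 0.04 with deltaNp63beta against vector (adjusted p = 3.06e-08), 0.23 ± 0.04 with deltaNp63alpha against vector (adjusted p = 0.0039) and 0.67 ± 0.04 between the isoforms. GGT5, the enzyme that turns leukotriene C4 into D4, held 164, 152 and 146 with deltaNp63beta, 55.1, 53.3 and 41.2 with deltaNp63alpha, and 120.2, 104 and 103 with vector. Vector lay between the isoform groups, with a change of -1.12 ± 0.17 for deltaNp63alpha against vector (adjusted p = 0.000982) and a difference of 1.62 ± 0.17 between deltaNp63beta and deltaNp63alpha (adjusted p = 3.13e-05). The GGT5 rise of 0.49 ± 0.17 with deltaNp63beta against vector (adjusted p = 0.035) was lost on leaving out any deltaNp63beta library or either of vector replicates 2 and 3 (adjusted p 0.0572 to 0.101), after quantile normalization (adjusted p = 0.0511) or with no filter (adjusted p = 0.0754).

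ALOXE3, an epidermal lipoxygenase gene, fell with deltaNp63beta against vector (-0.90 ± 0.18) and against deltaNp63alpha (-0.73 ± 0.18). MGST2, which can make leukotriene C4, rose by 0.55 ± 0.10 with deltaNp63beta against vector. MGST1 rose by 0.19 ± 0.04 with deltaNp63beta and changed by -0.18 ± 0.04 with deltaNp63alpha against vector, the fall not called without deltaNp63alpha replicate 3 or vector replicate 1 (adjusted p = 0.0581 and 0.0527) or without trend and robust moderation (adjusted p = 0.0592). MGST1 was 0.37 ± 0.04 higher with deltaNp63beta than with deltaNp63alpha. The list of leukotriene and lipoxin receptors besides the members held 8 genes, of which 2 were tested. Neither the receptor gene CYSLTR1 nor the leukotriene C4 exporter gene ABCC1 was called in any comparison. CYSLTR1 lay near the filter minimum of 10, with means of 9.30, 10.2 and 11.3 with deltaNp63beta, deltaNp63alpha and vector.

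In the cytochrome P450 and epoxide hydrolase list none of 7 tested genes was called with deltaNp63beta against vector, while CYP1B1 (-1.34 ± 0.17), EPHX2 (-0.66 ± 0.15) and EPHX1 (-0.21 ± 0.05) fell with deltaNp63alpha against vector. These 3 were higher with deltaNp63beta than with deltaNp63alpha, by 1.19 ± 0.17, 0.50 ± 0.15 and 0.33 ± 0.05. EPHX2, the soluble epoxide hydrolase gene, lost its call with deltaNp63alpha against vector on leaving out vector replicate 1 (adjusted p = 0.0505) or 2 (adjusted p = 0.0547). Between the isoforms it lost its call on leaving out deltaNp63alpha replicate 1 or either of deltaNp63beta replicates 2 and 3 (adjusted p 0.0756 to 0.0900). The EPHX1 fall was lost on leaving out any 1 of deltaNp63alpha replicates 2 and 3 and vector replicates 1 and 3 (adjusted p 0.0503 to 0.0874) or without trend and robust moderation (adjusted p = 0.0546).

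**Figure D4:**
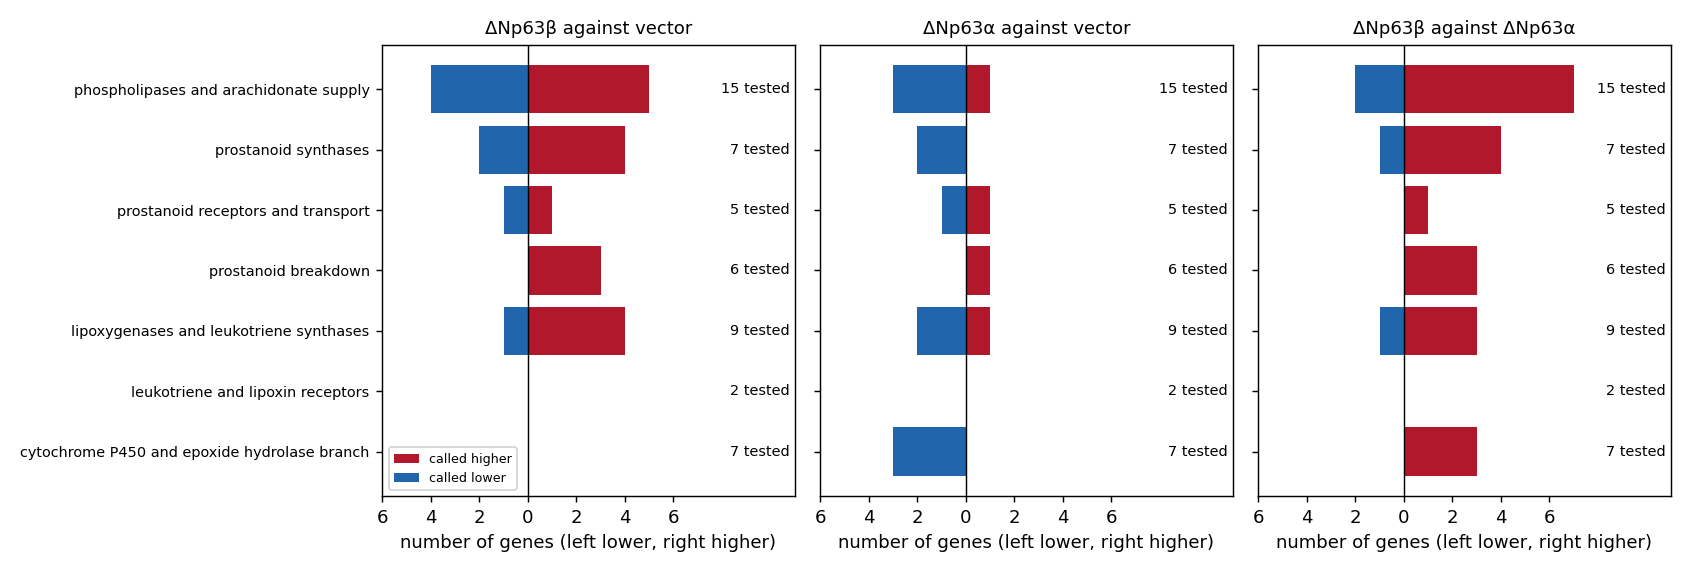
Number of other pathway genes called higher (red, to the right) and lower (blue, to the left) in each role list, with a panel per comparison and the number tested at the right. The list of phospholipases and arachidonate supply has 5 higher and 4 lower with deltaNp63beta (ΔNp63β) against vector, and the cytochrome P450 list has 3 lower with deltaNp63alpha (ΔNp63α) against vector.

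The genes whose levels followed a member most closely were ranked by Pearson r of log2(value + 1) over the 9 libraries, among genes with a symbol and a mean of at least 100; they are given for the 4 members with the widest change with deltaNp63beta against vector. LTB4R2 was followed most closely by LAD1 (r = 0.999), CTSC (0.998) and TRIB3 (0.997). LAD1 averaged 3257 with deltaNp63beta, 2508 with deltaNp63alpha and 667 with vector. ALOX5AP was followed most closely by TGFB1I1 (r = 0.989), CNPY4 (0.988) and PLCB4 (0.986), and PLCB4 averaged 137, 290.4 and 499 in the same groups. PTGS1 was followed by HSPA8 (r = 0.997), P3H2 (0.990) and ELMO3 (0.989), and LTB4R by MRPS26 (0.989), STPG1 (0.972) and ABTB3 (0.971). P3H2 averaged 1368 with deltaNp63beta, 1224 with deltaNp63alpha and 544 with vector. A high r does not mean a change of like size. HSPA8 averaged 61707, 60115 and 53142 in the same groups, beside 229, 176 and 62.3 for PTGS1. MRPS26 averaged 1418, 1342 and 1209, beside 178, 113 and 47.1 for LTB4R. TGFB1I1 averaged 418, 505 and 626, beside 12.5, 53.9 and 196 for ALOX5AP. With 3 groups of libraries, such an r mostly repeats the order and spacing of the group means, and each member was set against 10634 or 10635 candidate genes.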

How the data were processed

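Per the submitters' processing notes, kallisto 0.46.2, GRCh38 and DESeq2 (version not given) were used; which step produced the deposited numbers is not given. The authors deposited 1 signal value per gene and library, normalized estimated counts that are not whole. Between 60.9% and 63.7% of a library's low values, up to 20 steps, lay within 0.1 step of a whole multiple of its best step, so read counts were not recovered, no count model was used and no counting interval is given. The depth is known only through library sums of 22.5 to 23.2 M normalized counts. IDs were matched to symbols (36387 of 41857), and exons and positions came from GENCODE 29.

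Genes with at least 10 in at least 3 libraries were fitted with limma 3.58.1 in R 4.3.3 (log2(value + 1), trend and robust moderation, 3 groups in 1 fit, no block), with Benjamini-Hochberg adjustment over 15108 genes. The fit was tested on simulated data. The members and lists were chosen with earlier results of these data known. Other pathway genes are named where 5 or fewer of a list were called, otherwise the 4 smallest adjusted p. Alternatives were other scalings, pseudocounts, filters, a replicate block, a 1.5-fold threshold and moderation without the trend and robust options. Further ones were 2-group fits and leaving out each library. Python 3.11.15 and matplotlib 3.10.9 drew the figures.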

Additional observations from a re-analysis of the deposited data

How the results depend on the processing

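Each member's 3 changes were recomputed under 20 other settings, 540 values in all, of which 525 kept their sign and their side of the threshold, 11 lost a call, 3 gained one and 1 changed sign. The sign change was PTGES with deltaNp63alpha against vector, not called at -0.04, which ran between -0.094 without deltaNp63alpha replicate 1 and 0.0017 without deltaNp63alpha replicate 2. Tested against a 1.5-fold change, 2 members were called with deltaNp63alpha against vector (PTGS1 and LTB4R2) and 2 with deltaNp63beta against deltaNp63alpha (ALOX5AP and ALOX15B); of the other pathway genes 7, 2 and 2 were called with deltaNp63beta against vector, deltaNp63alpha against vector and deltaNp63beta against deltaNp63alpha, fewer by the construction of that test. On leaving out each library, 8 members were called in every case for deltaNp63beta against vector, 6 to 7 for deltaNp63alpha against vector and 4 to 6 between the isoforms, and of the other pathway genes 18 to 25, 11 to 15 and 22 to 26. With the replicate block, 8, 7 and 5 members and 23, 15 and 24 other pathway genes were called in these comparisons, and it changed no call of a member. Libraries of different groups share only a number: their residual correlation was -0.12 to 0.08 where the replicate number matched and -0.14 to 0.12 where it did not. Low values, such as ALOX5AP with deltaNp63beta and CYSLTR1, limit the precision, and with the depth not known no counting interval could be given.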
